A study of Mus musculus with 27 samples.

Results

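The collagen gene family was taken as every gene whose mouse symbol is Col, a number, the letter a and a number. This rule found 44 of the 54446 genes in the count tables. The rule uses no measured value, although the family was chosen with earlier results of these data known. By the type of collagen they encode, 11 are fibrillar (types I, II, III, V, XI, XXIV and XXVII), 9 belong to basement membranes (types IV, VII, XV and XVIII) and 24 are of other types. Of the 44 genes, 40 reached at least 1 CPM in some library (CPM, counts scaled to a common total of 1e+06 reads in genes). The other 4, Col9a1, Col10a1, Col19a1 and Col22a1, stayed under 1 CPM in all 27 libraries.

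Collagens are secreted proteins in which alpha chains wind around each other into a helical trimer. Fibrillar collagens build the load-bearing fibres of connective tissue, and type IV collagen builds the sheet-like network of basement membranes. Type VI forms beaded microfilaments between the cell surface and the fibres, and fibroblasts, pericytes and mesothelial cells are among the main producers. In lymph nodes, reticular fibroblasts make collagen-cored conduits that carry lymph through the T cell zone, and in the pancreas islets are bounded by a basement membrane.

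Bulk RNA was sequenced from sorted cells of mice aged 12 weeks, taken from the islets of the pancreas or from lymph nodes. TG+ mice were NOD mice with the Ins2-CCL21 transgene, in which the insulin promoter drives the chemokine CCL21 in beta cells, and TG- mice were NOD/ShiLtJ without it. NOD mice develop autoimmune diabetes, a background that both genotypes share. By their labels, 4 TG+ and 4 TG- libraries are leukocytes of the islets (CD45), 2 and 2 are islet cells high in gp38, the product of Pdpn, and 4 and 4 are islet cells low in gp38. A further 3 TG+ and 4 TG- libraries are labelled as fibroblastic reticular cells (FRCs) of lymph nodes. Nothing in the labels tells whether replicates are separate animals, so a p-value here covers the spread between libraries only, which may be technical.

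The sort genes went against the labels in 14 of the 27 libraries. Pdpn exceeded Ptprc, the gene of CD45, in 7 of 8 libraries labelled CD45, and Ptprc exceeded Pdpn in 1 of 4 labelled gp38 high, 1 of 8 labelled gp38 low and 5 of 7 labelled FRC. Collagen levels are therefore described over 4 library classes set by marker genes: Ptprc above 100 CPM (8 libraries), Ccl21a above 1000 CPM (7 libraries), Msln above 100 CPM (4 libraries), and the remaining 8. No library met 2 of these criteria. Ptprc-high holds 3 TG+ and 5 TG- libraries, Ccl21a-high 3 and 4, Msln-high 1 and 3, and the remaining class 6 and 2. Counted by the labels CD45, gp38 high, gp38 low and FRC, in that order, Ptprc-high holds 1, 1, 1 and 5 libraries. In the same order Ccl21a-high holds 4, 0, 3 and 0, Msln-high 1 of each, and the remaining class 2, 2, 3 and 1. Ccl21a-high thus holds no library labelled FRC. The count of 14 sets only Ptprc against Pdpn and does not cover this. Since the classes were set from the same libraries, no test was made between them, and a class is named only by its marker. Summed over marker lists that include these genes, leukocyte markers (Cd3e, Cd79a, Lyz2 and others) came to 4269.9 to 7126 CPM in Ptprc-high and at most 21.3 CPM elsewhere, and lymphoid stroma markers (Ccl19, Cxcl13, Il7 and others) to 3363 to 7315 CPM in Ccl21a-high and at most 175 CPM elsewhere. Mesothelial markers (Upk3b, Lrrn4, Wt1 and others) came to 4565 to 5788 CPM in Msln-high and at most 715 CPM elsewhere, and adventitial fibroblast markers (Pi16, Dpp4, Dpt and others) to at most 2611 CPM elsewhere and 6842 to 11268 CPM in the remaining libraries. Not every listed marker parted the classes. Dpp4 ran at 297 to 367 CPM in Msln-high and 207 to 406.5 CPM in the remaining libraries. Sema3c and, of the mesothelial list, Krt8 overlapped between these classes too. Pdgfra overlapped between Ccl21a-high and the remaining libraries. Reads in genes numbered 8517844 to 25194443 per library, and a count of 0 allows up to 0.119 to 0.352 CPM, a limit that covers counting error only.

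Several type IV and type VI genes lie next to each other, and the promoters of some of those whose levels differed between classes are printed here. In the GENCODE M21 annotation of GRCm38, Col4a1 (chr8:11198423-11312826) and Col4a2 (chr8:11312805-11449287) are transcribed away from each other and overlap by 22 bases. Col4a4 (chr1:82448423-82586849) and Col4a3 (chr1:82586921-82722059) are 71 bases apart in the same arrangement, and Col4a6 (chrX:141165403-141474076) and Col4a5 (chrX:141475385-141689234) are 1308 bases apart. Col6a6 (chr9:105687809-105828160), Col6a5 (chr9:105856078-105960643) and Col6a4 (chr9:105989454-106096783) follow each other on the minus strand of chromosome 9, with 27917 and 28810 bases between them. The RefSeq table of promoters on GRCm38.p6, which gives 250 bases before to 50 bases after a start, had an entry for 35 of the 44 genes. Capitals mark matches, on either strand, to the CAAT box (CCAAT), the TATA box (TATAAA) and the GC box (GGGCGG), which do not overlap in these windows. The following are 300 bases each, 5′ to 3′ on the strand of the gene.
Col4a1 (chr8:11312777-11313076, minus strand): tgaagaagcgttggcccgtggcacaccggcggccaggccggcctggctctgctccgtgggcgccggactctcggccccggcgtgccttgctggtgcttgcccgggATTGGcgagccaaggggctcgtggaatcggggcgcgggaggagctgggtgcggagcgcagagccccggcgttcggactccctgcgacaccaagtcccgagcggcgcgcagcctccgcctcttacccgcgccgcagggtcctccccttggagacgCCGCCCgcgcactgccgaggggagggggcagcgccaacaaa
Col4a2 (chr8:11312555-11312854, plus strand): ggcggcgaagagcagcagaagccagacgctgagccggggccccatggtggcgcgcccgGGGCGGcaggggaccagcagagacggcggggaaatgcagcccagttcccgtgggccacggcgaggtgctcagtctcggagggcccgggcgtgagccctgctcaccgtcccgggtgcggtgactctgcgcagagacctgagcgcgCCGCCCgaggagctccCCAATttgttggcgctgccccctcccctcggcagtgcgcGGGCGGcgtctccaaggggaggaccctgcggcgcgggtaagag
Col4a4 (chr1:82586800-82587099, minus strand): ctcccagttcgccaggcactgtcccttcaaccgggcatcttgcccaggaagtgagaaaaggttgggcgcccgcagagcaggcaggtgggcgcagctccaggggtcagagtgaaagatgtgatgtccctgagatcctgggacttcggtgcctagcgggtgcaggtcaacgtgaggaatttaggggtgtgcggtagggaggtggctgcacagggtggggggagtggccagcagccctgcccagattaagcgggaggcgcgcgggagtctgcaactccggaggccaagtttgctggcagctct
Col4a5 (chrX:141475169-141475468, plus strand): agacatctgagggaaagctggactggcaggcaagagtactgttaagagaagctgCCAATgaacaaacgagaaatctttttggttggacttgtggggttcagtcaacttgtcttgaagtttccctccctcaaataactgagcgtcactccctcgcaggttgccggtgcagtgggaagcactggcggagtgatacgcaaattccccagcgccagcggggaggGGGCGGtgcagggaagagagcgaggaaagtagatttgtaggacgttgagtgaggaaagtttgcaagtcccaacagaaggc
Col4a6 (chrX:141474027-141474326, minus strand): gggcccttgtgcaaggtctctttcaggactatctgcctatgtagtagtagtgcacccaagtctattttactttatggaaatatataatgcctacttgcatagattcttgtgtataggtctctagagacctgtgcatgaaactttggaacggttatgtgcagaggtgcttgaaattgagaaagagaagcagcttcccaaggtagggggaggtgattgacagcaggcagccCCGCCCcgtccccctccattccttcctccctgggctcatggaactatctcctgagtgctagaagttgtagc
Col6a4 (chr9:106096642-106096941, minus strand): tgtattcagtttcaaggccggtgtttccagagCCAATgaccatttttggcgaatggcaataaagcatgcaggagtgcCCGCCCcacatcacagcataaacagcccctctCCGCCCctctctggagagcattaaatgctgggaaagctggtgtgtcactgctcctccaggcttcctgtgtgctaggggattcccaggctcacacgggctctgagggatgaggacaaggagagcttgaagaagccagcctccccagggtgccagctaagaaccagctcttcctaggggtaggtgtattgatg
Col6a5 (chr9:105960594-105960893, minus strand): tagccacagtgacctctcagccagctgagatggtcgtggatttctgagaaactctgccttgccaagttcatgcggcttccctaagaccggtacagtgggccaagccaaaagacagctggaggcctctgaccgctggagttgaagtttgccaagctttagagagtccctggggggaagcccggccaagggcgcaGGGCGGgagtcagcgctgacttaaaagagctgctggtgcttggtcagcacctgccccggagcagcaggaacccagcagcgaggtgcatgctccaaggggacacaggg
The windows of Col4a1 and Col4a2 share 78 bases, read from opposite strands. GGGCGG was found once in the window of Col4a1 and 3 times in that of Col4a2, once each in those of Col4a5, Col4a6 and Col6a5, and 2 times in that of Col6a4. No match to any of the motifs stood in the window of Col4a4, and none of the 7 windows held TATAAA. Of the 38 entries of collagen genes, 13 held CCAAT, 5 held TATAAA and 23 held GGGCGG, against 37.4%, 13.6% and 35.7% of all 32851 promoters of that table. The share of G and C had a median of 52.7% over all promoters. It ran from 48.3% (Col4a6) to 74% (Col4a1) in the 7 printed windows, and its part in the motif counts was not tested. These matches describe letters in a window and say nothing of what binds there.

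Collagen transcripts took a few percent of the reads in 19 libraries and almost none in the Ptprc-high ones. The lowest, median and highest share of gene reads that fell on the 44 genes was 0.0103%, 0.0144% and 0.0221% in Ptprc-high libraries. It was 2.53%, 2.81% and 3.53% in Ccl21a-high libraries, 1.69%, 2.94% and 3.31% in Msln-high libraries, and 4.54%, 5.26% and 6.28% in the remaining libraries. The remaining class overlapped no other class on this share. In bulk samples, fewer cells of a type and less RNA per cell cannot be told apart. The mix of types differed less: fibrillar genes made up a median of 57.2% of the collagen reads in Ccl21a-high, 64.8% in Msln-high and 62.3% in the remaining libraries. Basement membrane genes made up a median of 15.3% in Ccl21a-high, 9.24% in Msln-high and 13.0% in the remaining libraries.

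**Figure D1:**
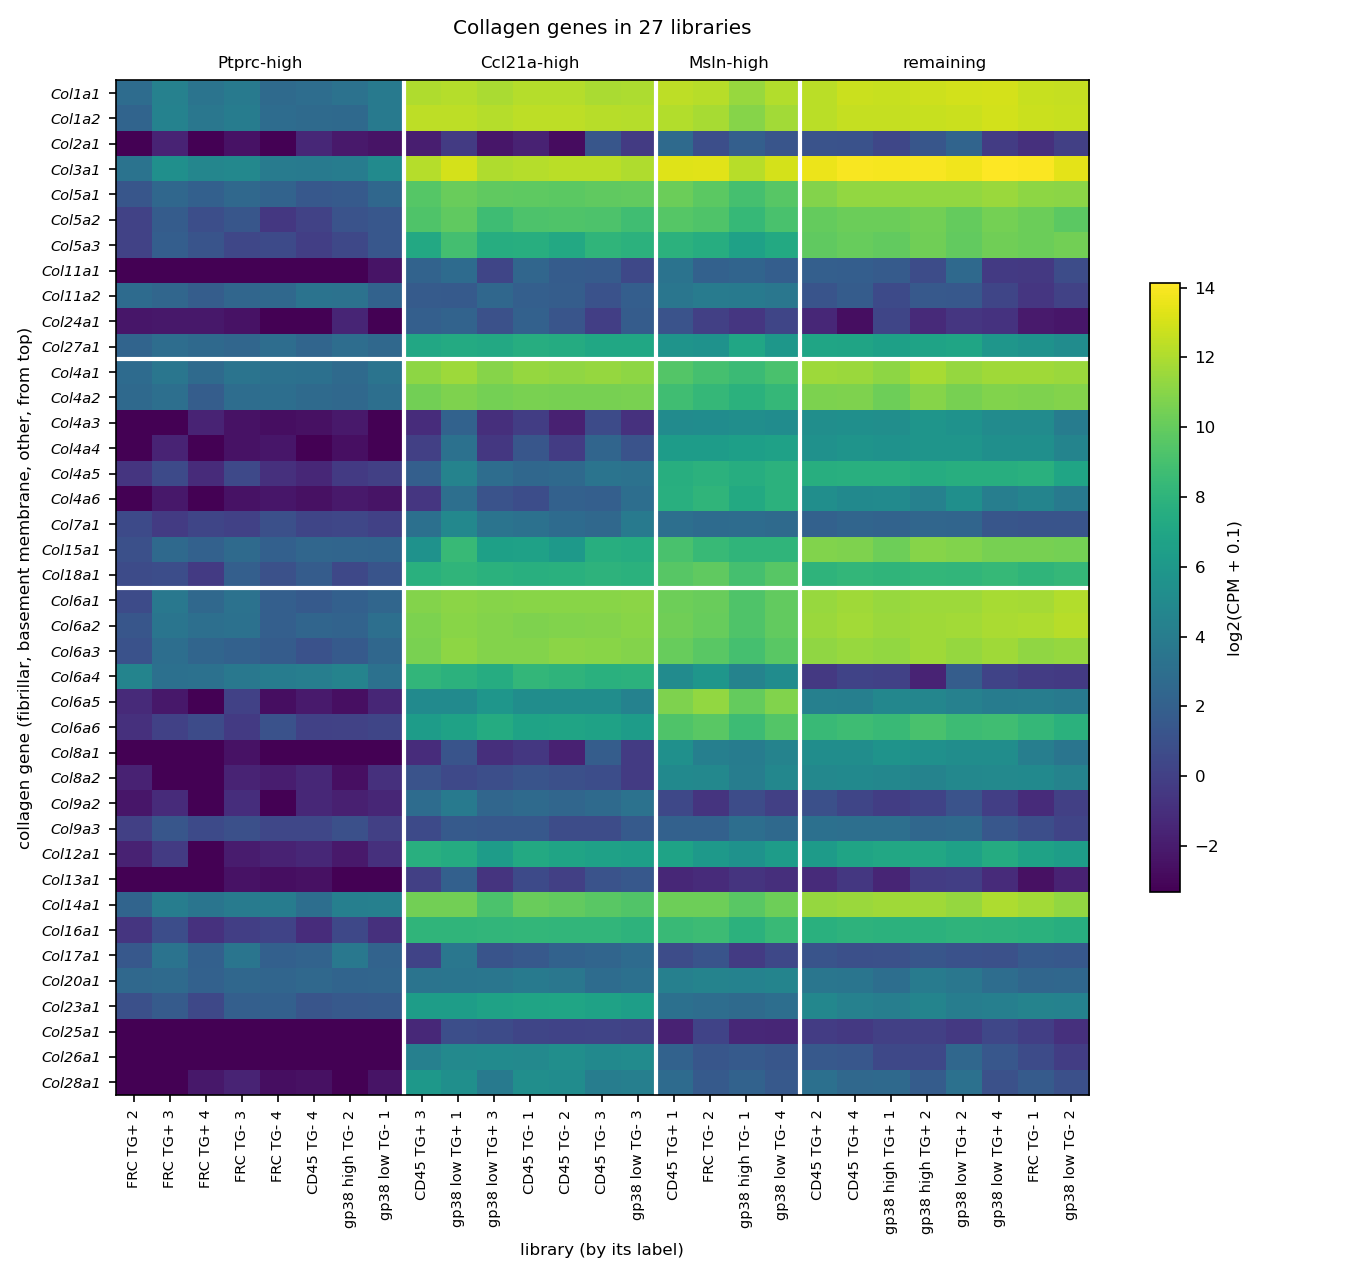
Level of the 40 collagen genes that reached 1 CPM (rows, ordered by type) in the 27 libraries (columns, by class and, within a class, TG+ before TG-), as log2(CPM + 0.1). The 8 Ptprc-high columns are dark in nearly all rows, and single rows such as Col6a5 and Col26a1 are bright in 1 class.

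The summed fibrillar level was highest in the remaining libraries, and so were the medians of Col1a1, Col1a2, Col3a1 and the type V chains, while those of Col24a1 and Col27a1 were highest in Ccl21a-high and those of Col2a1, Col11a1 and Col11a2 in Msln-high. For single genes, the 4 Msln-high values are given in the order CD45 TG+ 1, gp38 high TG- 1, gp38 low TG- 4 and FRC TG- 2, and the other classes by their lowest, median and highest library. By lowest, median and highest library, the sum was 37.9, 60.7 and 108 CPM in Ptprc-high libraries, 14358, 15840.4 and 21039 CPM in Ccl21a-high libraries, 10618.5, 19053 and 22202 CPM in Msln-high libraries, and 26774, 32969.8 and 39651 CPM in the remaining libraries. The library labelled gp38 high TG- 1 was the lowest of the 4 for each of the main fibrillar chains.

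The chains of type I, the main collagen of most fibres, both had their highest median in the remaining libraries. Col1a1 stood at 6.38, 9.94 and 19.8 CPM in Ptprc-high, at 3863, 4241 and 4691 CPM in Ccl21a-high, at 5480.4, 2755, 4466 and 4788 CPM in Msln-high and at 5233, 6612 and 8344 CPM in the remaining libraries. Col1a2 stood at 4.79, 9.47 and 21.2 CPM in Ptprc-high, at 4548, 5273 and 5471 CPM in Ccl21a-high, at 4366, 1964, 3270.1 and 3735 CPM in Msln-high and at 5199.8, 6393 and 7726 CPM in the remaining libraries. Per kilobase of transcript, the ratio of Col1a1 to Col1a2 was 0.725 to 0.788 in Ccl21a-high, 1.13 to 1.26 in Msln-high and 0.854 to 1.02 in the remaining libraries, with no overlap between these classes. Col1a1 ranges did not overlap between Ccl21a-high and the remaining libraries, and the median in Ccl21a-high was 0.641 of that in the remaining libraries. Col1a2 ranges in Msln-high overlapped neither those in Ccl21a-high nor those in the remaining libraries. Its Msln-high median was 0.548 of that in the remaining libraries, and its Ccl21a-high median was 1.51 times that in Msln-high.

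Col3a1, the chain of type III, the collagen of fine reticular fibres, parted more between Ccl21a-high and the remaining libraries. Col3a1 stood at 9.79, 20.8 and 41.2 CPM in Ptprc-high, at 4148, 4704 and 8171 CPM in Ccl21a-high, at 10128, 4811, 8132 and 10439.6 CPM in Msln-high and at 10988, 15195 and 17882 CPM in the remaining libraries. Its median in Ccl21a-high was 0.310 of that in the remaining libraries, with ranges that did not overlap. Per kilobase, Col3a1 was 1.07 to 1.86 times Col1a1 in Ccl21a-high, 1.86 to 2.32 times in Msln-high and 1.87 to 2.69 times in the remaining libraries. The highest Ccl21a-high value of Col3a1, 8171 CPM in the library labelled gp38 low TG+ 1, lay above the 5166 CPM of the next library.

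Type V collagen, which starts fibres and sets their width, had its highest median in the remaining libraries for each of its chains. Col5a1 stood at 2.5, 4.31 and 5.83 CPM in Ptprc-high, at 736, 935 and 1113 CPM in Ccl21a-high, at 1175, 499, 768 and 838 CPM in Msln-high and at 1881, 2507 and 2935 CPM in the remaining libraries. Col5a2 ran at 0.595 to 3.29 CPM in Ptprc-high, 418 to 952 CPM in Ccl21a-high, 336 to 730.2 CPM in Msln-high and 832 to 1404 CPM in the remaining libraries. Col5a3 stood at 0.850, 1.35 and 3.64 CPM in Ptprc-high, at 146, 199 and 481 CPM in Ccl21a-high, at 239.6, 99.997, 153 and 186 CPM in Msln-high and at 946, 1149 and 1383 CPM in the remaining libraries. The median of Col5a3 was 0.173 of that in the remaining libraries in Ccl21a-high and 0.147 of it in Msln-high, and the range of the remaining libraries touched that of no other class. The ranges of Col5a2 overlapped between Ccl21a-high and the remaining libraries. Among the minor fibrillar chains, Col27a1 ran at 4.79 to 7.61 CPM in Ptprc-high, 132 to 191 CPM in Ccl21a-high, 47.8 to 129.9 CPM in Msln-high and 36.3 to 121 CPM in the remaining libraries. Col24a1 stood at 0.830 to 4.65 CPM in Ccl21a-high, against 0.0544 to 1.13 CPM in the remaining libraries, and Col2a1 of cartilage stayed at or under 6.40 CPM throughout.

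**Figure D2:**
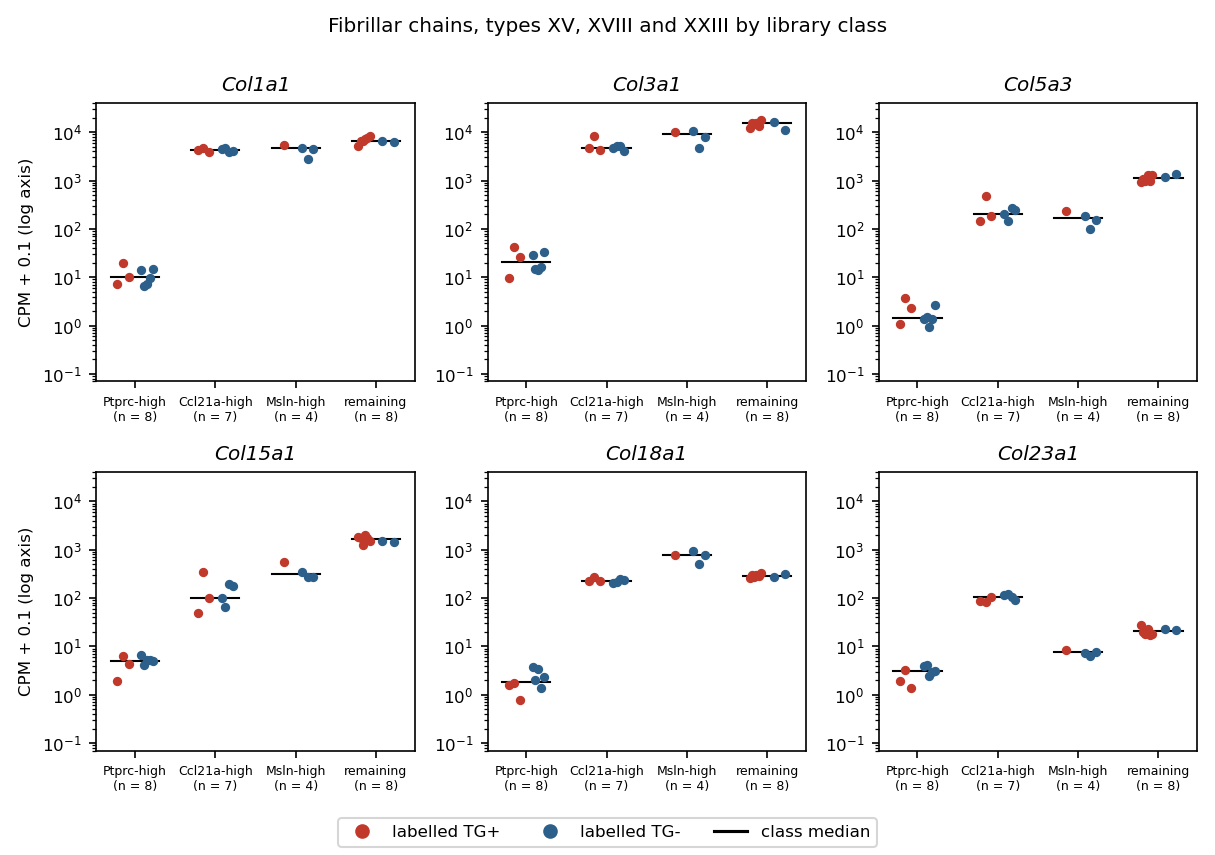
CPM + 0.1 on a log axis for 6 collagen genes in each library, by class, with TG+ in red and TG- in blue and a line at the class median. Col5a3 and Col15a1 are highest in the 8 remaining libraries, Col18a1 in the 4 Msln-high libraries and Col23a1 in the 7 Ccl21a-high libraries.

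The 6 chains of type IV collagen, the network former of basement membranes, did not share 1 order over the classes. Col4a1 and Col4a2 encode the chains found in nearly all basement membranes. Col4a1 stood at 6.37, 8.87 and 11.6 CPM in Ptprc-high, at 1942, 2449.8 and 3023 CPM in Ccl21a-high, at 719, 375, 551 and 496 CPM in Msln-high and at 2318, 2992 and 3664 CPM in the remaining libraries. Col4a2 stood at 3.45, 6.80 and 8.35 CPM in Ptprc-high, at 1341, 1489 and 1690.3 CPM in Ccl21a-high, at 436, 229, 321 and 320.0 CPM in Msln-high and at 1248, 1714 and 1954 CPM in the remaining libraries. Msln-high libraries were below both the Ccl21a-high and the remaining libraries for both genes, with no overlap, while Ccl21a-high overlapped the remaining libraries. The medians in Msln-high were 0.175 of those in the remaining libraries for Col4a1 and 0.187 for Col4a2. Per kilobase, Col4a1 exceeded Col4a2 by similar factors, 1.35 to 1.74 in Ccl21a-high, 1.51 to 1.67 in Msln-high and 1.52 to 1.83 in the remaining libraries.

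Col4a3, Col4a4 and Col4a5 encode the chains that assemble together in the basement membranes of kidney glomeruli and lung. Col4a3 stood at 0, 0.0625 and 0.230 CPM in Ptprc-high, at 0.206, 0.457 and 4.33 CPM in Ccl21a-high, at 34.0, 38.4, 35.1 and 36.1 CPM in Msln-high and at 16.0, 38.9 and 54.7 CPM in the remaining libraries. Col4a4 stood at 0, 0.0309 and 0.235 CPM in Ptprc-high, at 0.624, 2.10 and 9.14 CPM in Ccl21a-high, at 81.7, 93.2, 99.8 and 80.5 CPM in Msln-high and at 22.9, 46.4 and 55.0 CPM in the remaining libraries. Col4a5 stood at 0.283, 0.612 and 1.41 CPM in Ptprc-high, at 3.84, 7.49 and 22.2 CPM in Ccl21a-high, at 192, 185, 232 and 242 CPM in Msln-high and at 122, 195 and 214 CPM in the remaining libraries. All 3 were near their floor or low in Ccl21a-high libraries and well measured in the Msln-high and remaining libraries. The median of Col4a5 in Ccl21a-high was 0.0384 of that in the remaining libraries. The highest Ccl21a-high library for all 3 was the one labelled gp38 low TG+ 1, at 4.33, 9.14 and 22.2 CPM. The ranges of Col4a3 and Col4a5 overlapped between Msln-high and the remaining libraries, and Col4a4 was higher in Msln-high by a factor of 1.89 in the medians. The lowest of the remaining libraries for all 3 was the one labelled gp38 low TG- 2.

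Col4a6, the partner of Col4a5 in the basement membranes of smooth muscle and of some epithelia, was highest in Msln-high libraries. Col4a6 stood at 0, 0.0823 and 0.124 CPM in Ptprc-high, at 0.591, 3.70 and 8.20 CPM in Ccl21a-high, at 204, 156, 242 and 273 CPM in Msln-high and at 14.5, 27 and 40.4 CPM in the remaining libraries. The median in Msln-high was 8.23 times that in the remaining libraries and the ranges did not overlap. Per kilobase, Col4a6 was 0.151 to 0.819 times Col4a5 in Ccl21a-high libraries, where both genes were low, 0.828 to 1.11 times in Msln-high libraries and 0.0887 to 0.205 times in the remaining libraries. Markers of pericytes and smooth muscle (Notch3, Rgs5, Acta2, Tagln, Myh11, Cspg4 and Mcam) summed to 2313 to 3901 CPM in Ccl21a-high, 227 to 343 CPM in Msln-high and 145 to 289 CPM in the remaining libraries. All 7 of these markers had a class median of at least 1 CPM in those 3 classes, but Cspg4 went against the sum. Cspg4 ran at 5.21 to 12.6 CPM in Ccl21a-high, 15.7 to 24.4 CPM in Msln-high and 35.3 to 71.4 CPM in the remaining libraries. The ranges of Myh11 and Mcam overlapped between Ccl21a-high and Msln-high, and those of Mcam also between Ccl21a-high and the remaining libraries. Ductal markers (Spp1, Sox9, Epcam and others) summed to 15.9 to 60.0 CPM in Ccl21a-high. They came to 1164 to 3898 CPM in Msln-high and 319 to 3466 CPM in the remaining libraries. Krt19 and Krt8 stand in both the ductal and the mesothelial list. The part of either list in the type IV pattern was not tested.

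**Figure D3:**
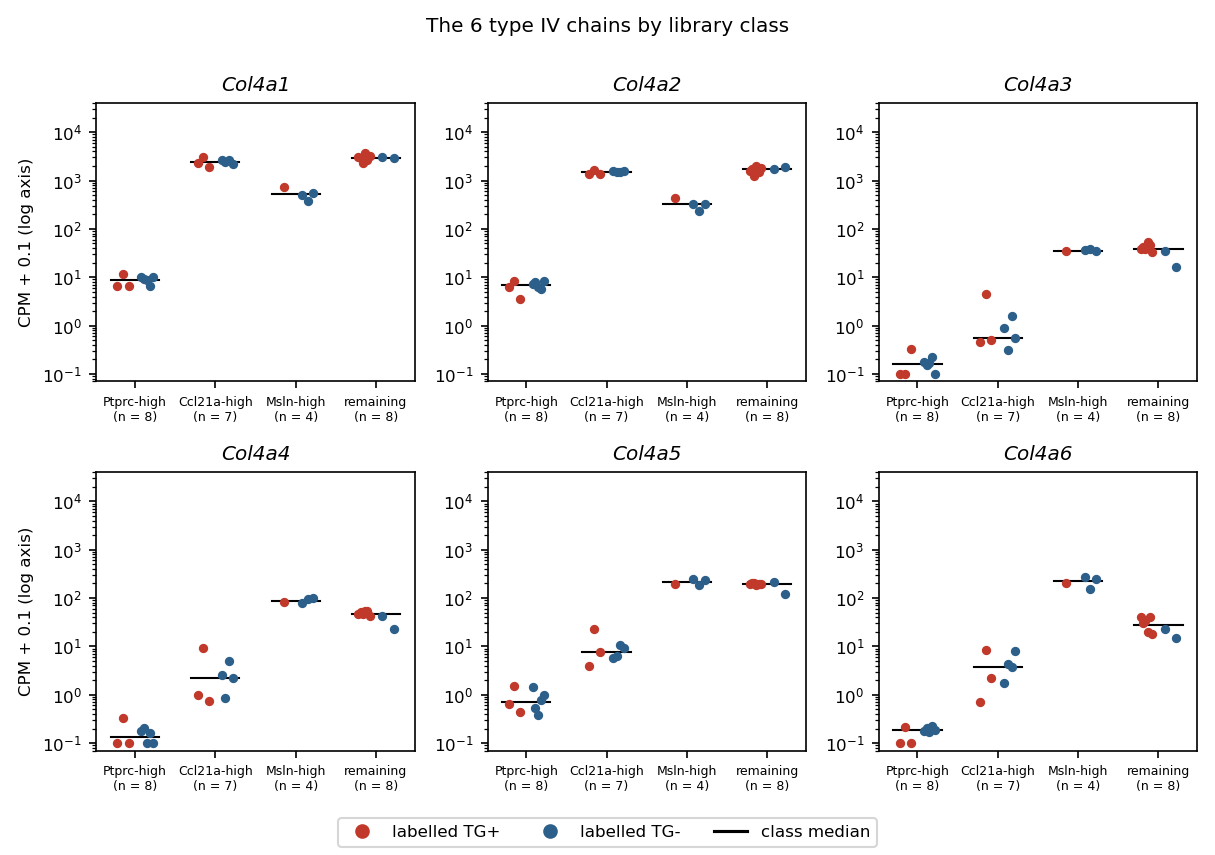
CPM + 0.1 on a log axis for the 6 type IV chains in each library, by class, with TG+ in red, TG- in blue and a line at the class median. Col4a1 and Col4a2 dip in the 4 Msln-high libraries, Col4a3, Col4a4 and Col4a5 are low in the 7 Ccl21a-high libraries, and Col4a6 peaks in the Msln-high libraries.

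Types XV and XVIII are related heparan or chondroitin sulphate-bearing collagens of the basement membrane zone, and the C-terminal fragment of type XVIII is endostatin. Their levels took opposite orders in the Msln-high and remaining libraries. Col15a1 stood at 1.85, 4.97 and 6.53 CPM in Ptprc-high, at 48.0, 101 and 346 CPM in Ccl21a-high, at 560.0, 272, 277 and 352 CPM in Msln-high and at 1254, 1640.3 and 1967 CPM in the remaining libraries. Col18a1 stood at 0.690, 1.77 and 3.73 CPM in Ptprc-high, at 206, 221 and 274 CPM in Ccl21a-high, at 779.6, 508, 779 and 920.3 CPM in Msln-high and at 258, 291 and 326 CPM in the remaining libraries. Per kilobase, Col15a1 was 0.201 to 1.17 times Col18a1 in Ccl21a-high and 0.329 to 0.665 times in Msln-high, against 4.26 to 6.47 times in the remaining libraries. Col18a1 set against Col4a1 gave 1.5 to 2.56 in Msln-high, with no overlap with Ccl21a-high (0.109 to 0.157) or the remaining libraries (0.112 to 0.162). Col7a1, which forms the anchoring fibrils under epithelia, was a low-level gene. Col7a1 ran at 0.704 to 1.84 CPM in Ptprc-high, 5.87 to 28.2 CPM in Ccl21a-high, 6.42 to 8.02 CPM in Msln-high and 2.19 to 5.20 CPM in the remaining libraries.

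The 6 chains of type VI collagen also fell into 2 groups. Col6a1, Col6a2 and Col6a3 encode the classical chains of the microfilaments. Col6a1 stood at 1.52, 4.63 and 12.3 CPM in Ptprc-high, at 1939, 2055 and 2200.1 CPM in Ccl21a-high, at 1266, 647, 989 and 1121 CPM in Msln-high and at 2789, 3114 and 4365 CPM in the remaining libraries. Col6a2 stood at 2.5, 6.60 and 11.2 CPM in Ptprc-high, at 1668, 1899.7 and 2091 CPM in Ccl21a-high, at 1322, 634, 1001 and 1083 CPM in Msln-high and at 2948, 3375 and 4949 CPM in the remaining libraries. Col6a3 ran at 1.96 to 7.75 CPM in Ptprc-high, 1562 to 2301 CPM in Ccl21a-high, 502 to 1094 CPM in Msln-high and 2410.3 to 3249.7 CPM in the remaining libraries. All 3 were highest in the remaining libraries, then in Ccl21a-high and then in Msln-high, with no overlap between any of these classes. Per kilobase, the ratio of Col6a1 to Col6a2 was 0.562 to 1.06 in Ptprc-high, 1.01 to 1.16 in Ccl21a-high, 0.922 to 0.997 in Msln-high and 0.849 to 0.940 in the remaining libraries.

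Col6a4, Col6a5 and Col6a6 encode later-described chains related to that of Col6a3, and each of the 3 neighbouring genes had its own order over the classes. Col6a4 stood at 8.57, 14.2 and 23.1 CPM in Ptprc-high, at 182, 241 and 302 CPM in Ccl21a-high, at 34.5, 22.3, 35.9 and 56.5 CPM in Msln-high and at 0.238, 0.861 and 3.38 CPM in the remaining libraries. Col6a5 stood at 0, 0.130 and 0.932 CPM in Ptprc-high, at 21.1, 36.9 and 57.2 CPM in Ccl21a-high, at 1748, 1019, 1840.1 and 2541 CPM in Msln-high and at 14.0, 18.8 and 26.5 CPM in the remaining libraries. Col6a6 stood at 0.435, 0.964 and 2.05 CPM in Ptprc-high, at 80.8, 109 and 168 CPM in Ccl21a-high, at 624.7, 403, 697 and 820.3 CPM in Msln-high and at 226, 379 and 547 CPM in the remaining libraries. Col6a4 was highest in Ccl21a-high, and its median there was 280 times that in the remaining libraries, where it was close to the limit of detection. Col6a5 was highest in Msln-high, with a median 95.2 times that in the remaining libraries. Per kilobase, Col6a5 exceeded Col6a3 in all 4 Msln-high libraries, by 1.55 to 2.98 times, against 0.00478 to 0.00998 times in the remaining libraries. Col6a6 was also highest in the median of Msln-high, but its range overlapped that of the remaining libraries. The promoters of Col6a4 and Col6a5 printed above belong to genes whose ends lie 28810 bases apart.

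**Figure D4:**
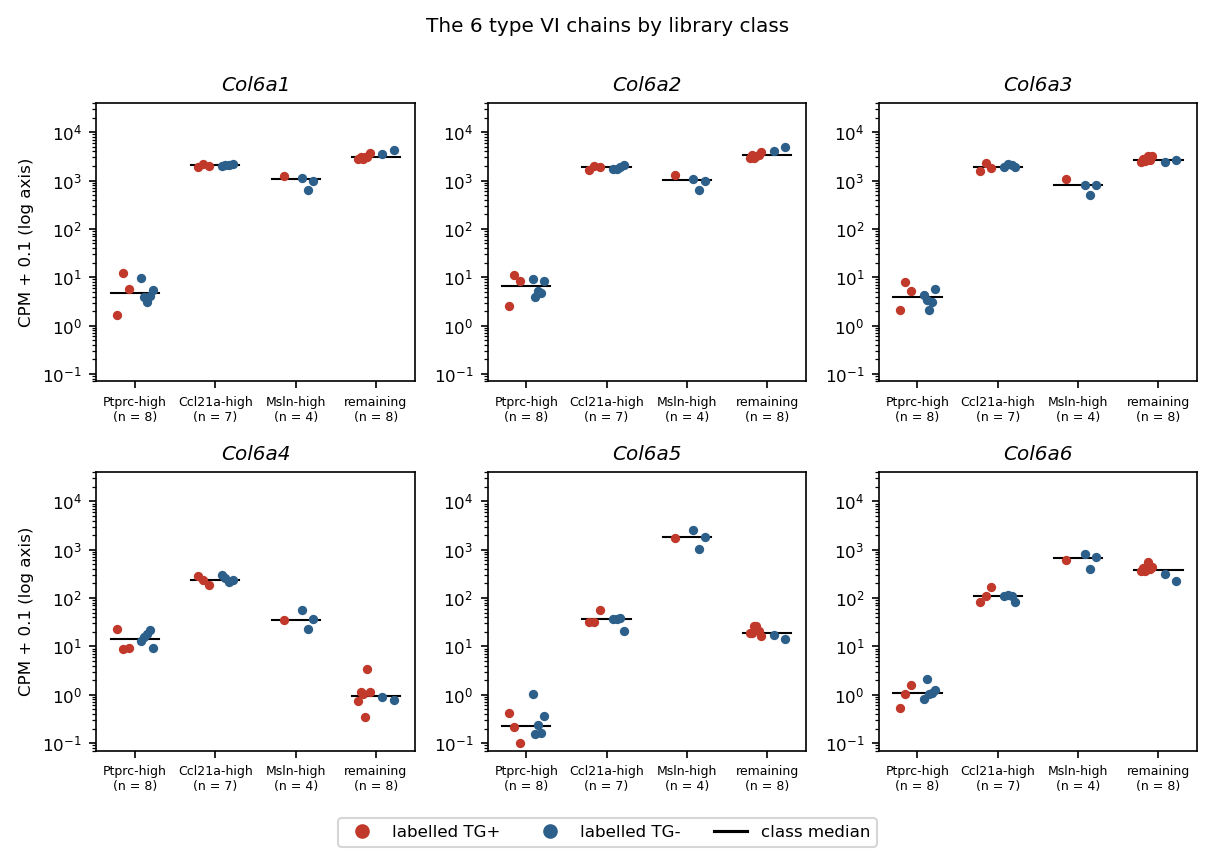
CPM + 0.1 on a log axis for the 6 type VI chains in each library, by class, with TG+ in red, TG- in blue and a line at the class median. The 3 classical chains share 1 order over the classes, Col6a4 peaks in the 7 Ccl21a-high libraries and Col6a5 in the 4 Msln-high libraries.

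Among the other types, Col14a1, a fibril-associated collagen of the fibre surface, was higher in the remaining libraries. Col14a1 stood at 4.89, 15.6 and 19.6 CPM in Ptprc-high, at 574, 977 and 1346 CPM in Ccl21a-high, at 1239, 809, 1241 and 1217 CPM in Msln-high and at 2489.6, 3051 and 4125 CPM in the remaining libraries. Its ranges in Ccl21a-high and Msln-high lay below that of the remaining libraries. Col12a1 ran at 0 to 0.704 CPM in Ptprc-high, 79.7 to 205 CPM in Ccl21a-high, 46.6 to 112 CPM in Msln-high and 76.7 to 173 CPM in the remaining libraries, so this second fibril-associated gene overlapped between all classes but Ptprc-high. Col16a1 ran at 0.354 to 1.64 CPM in Ptprc-high, 252 to 302 CPM in Ccl21a-high, 240.0 to 393 CPM in Msln-high and 196 to 258 CPM in the remaining libraries. The short-chain genes Col8a1 and Col8a2, whose products form hexagonal lattices in blood vessels and under corneal endothelium, were low in Ccl21a-high: 0.206 to 3.51 CPM against 10.9 to 50.3 CPM in the remaining libraries for Col8a1, and 0.731 to 2.25 CPM against 22.6 to 31.7 CPM for Col8a2.

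A set of low-level genes was highest in Ccl21a-high libraries. Col23a1, which encodes a transmembrane collagen, ran at 84.5 to 122 CPM there, at 6.36 to 8.51 CPM in Msln-high and at 17.0 to 27.1 CPM in the remaining libraries. Col26a1 stood at 19.6 to 39.5 CPM in Ccl21a-high, against 0.781 to 5.47 CPM in the remaining libraries, and had no read in any Ptprc-high library. Col28a1, known in mouse from peripheral nerve, stood at 13.6 to 62.2 CPM in Ccl21a-high, against 1.79 to 8.85 CPM in the remaining libraries. Col9a2, a cartilage fibril-associated chain, stood at 5.31 to 14.7 CPM in Ccl21a-high, against 0.353 to 2.09 CPM in the remaining libraries.

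The Col23a1 locus also gave reads on the opposite strand, outside the counts used here. They came to 21.1 to 29.6 CPM in Msln-high libraries, more than the 6.36 to 8.51 CPM on the strand of Col23a1, against 1.77 to 9.01 CPM in the remaining libraries. When both strands were counted together, the Msln-high median was above that of the remaining libraries, by 0.36 on the log2 scale, and the order of these classes turned round.

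Genes whose ranges did not overlap between 2 classes were counted among those with a mean of at least 1 CPM in either. Against the other 19 libraries, Ptprc-high libraries were lower for 29 of 38 collagen genes, and 20.4% of all 14965 genes so compared were lower. None of the 38 was higher in Ptprc-high, against 12.4% of all genes. Between Ccl21a-high and the remaining libraries, 7 of 39 collagen genes were higher in Ccl21a-high and 16 were lower, against 10.4% and 17.1% of all genes. Between Msln-high and the remaining libraries, 8 of 37 were higher in Msln-high, close to the 21.1% of all genes, and 13 were lower, against 8.85%. Between Ccl21a-high and Msln-high, 12 of 39 were higher in Ccl21a-high, against 10.8% of all genes, and 12 were lower, against 32.3%. These counts say nothing of chance, since the classes came from the same data. With every threshold doubled, 1 library labelled FRC TG- (replicate 4, Ptprc at 169 CPM) passed from Ptprc-high to the remaining class. In the same comparisons, 3 genes were then lower in Ptprc-high, 0 in Ccl21a-high and 0 in Msln-high. The shares of all genes under doubled thresholds are not given here, so nothing particular to collagen is read from this drop.

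In Ptprc-high libraries the few collagen reads were spread over other genes as well. Col1a1, Col1a2 and Col3a1 together took 20.8% to 37.2% of the collagen reads there, against 48.6% to 52.0% in Ccl21a-high, 56.4% to 60.3% in Msln-high and 47.4% to 54.9% in the remaining libraries. Col6a4 held 8.57 to 23.1 CPM in Ptprc-high libraries, above the 0.238 to 3.38 CPM of the remaining libraries, and reads on the opposite strand there came to 2.7 to 7.94 CPM. Col11a2, a minor fibrillar chain whose start lies 1037 bases past the end of Rxrb on the same strand, held 3.45 to 10.1 CPM in Ptprc-high, 1.98 to 5.62 CPM in Ccl21a-high, 11.3 to 15.2 CPM in Msln-high and 0.565 to 3.32 CPM in the remaining libraries. Col17a1, a transmembrane collagen of hemidesmosomes, held 2.72 to 12.4 CPM in Ptprc-high and 1.79 to 3.04 CPM in the remaining libraries. The most abundant gene of a library took 20.8% to 36.0% of gene reads in Ptprc-high, 9.78% to 22.2% in Ccl21a-high, 5.31% to 6.82% in Msln-high and 5.39% to 7.93% in the remaining libraries. The 6 acinar markers, genes of digestive enzymes, summed to 254 to 3272 CPM in Ptprc-high, at most 0.886 CPM in Ccl21a-high, 86.4 to 522 CPM in Msln-high and 85.4 to 9382 CPM in the remaining libraries, and their part in the levels of collagen genes was not tested.

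The enzymes that finish collagen outside the cell were mostly lower in Ccl21a-high and Msln-high than in the remaining libraries. Of 13 genes for propeptide removal and cross-linking, 1 was higher and 10 were lower in Ccl21a-high without overlap, against 10.4% and 17.1% of all genes. In Msln-high 2 were higher and 9 lower, against 21.1% and 8.85%. Loxl1, a cross-linking oxidase, stood at 187 to 313 CPM in Ccl21a-high, 259 to 444 CPM in Msln-high and 701 to 1670.1 CPM in the remaining libraries. Pcolce2, an enhancer of procollagen C-proteinase, stood at 18.9 to 67.9 CPM in Ccl21a-high, 11.5 to 31.5 CPM in Msln-high and 226 to 529 CPM in the remaining libraries. The genes higher than in the remaining libraries were Adamts3, a procollagen N-proteinase, in both classes, and Tll1, a C-proteinase, in Msln-high. Adamts3 stood at 17.2 to 30.7 CPM in Ccl21a-high and 24.1 to 54.0 CPM in Msln-high, against 3.01 to 9.21 CPM in the remaining libraries. Tll1 stood at 36.5 to 60.4 CPM in Msln-high, against 1.90 to 5.40 CPM in the remaining libraries.

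Of 19 genes for chain modification and folding, 1 was higher and 4 were lower in Ccl21a-high than in the remaining libraries, against 10.4% and 17.1% of all genes. In Msln-high 2 were higher and 6 lower, against 21.1% and 8.85%. Serpinh1, the collagen chaperone Hsp47, stood at 2.54 to 6.60 CPM in Ptprc-high, 897 to 1481 CPM in Ccl21a-high, 651 to 1316 CPM in Msln-high and 1127 to 1811 CPM in the remaining libraries. Plod2, a lysyl hydroxylase of collagen telopeptides, was higher in Msln-high, at 116 to 231 CPM, against 33.4 to 92.1 CPM in the remaining libraries. Colgalt2, a collagen galactosyltransferase, was at 0.532 to 5.75 CPM in Ccl21a-high and 2.21 to 4.43 CPM in Msln-high, against 30.5 to 47.6 CPM in the remaining libraries.

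Itga1, the integrin chain that favours type IV collagen, stood at 298 to 956 CPM in Ccl21a-high, 30.5 to 43.8 CPM in Msln-high and 10 to 40.8 CPM in the remaining libraries. Itga11, an integrin chain that binds fibrillar collagen, was highest in the remaining libraries, at 74.0 to 123 CPM in Ccl21a-high, 16.8 to 48.0 CPM in Msln-high and 190 to 461 CPM in the remaining libraries. Lair1, an inhibitory collagen receptor of leukocytes, stood at 8.08 to 62.1 CPM in Ptprc-high and at most 0.223 CPM elsewhere. Of 8 receptor genes compared, 1 was higher and 2 were lower in Ccl21a-high than in the remaining libraries, against 10.4% and 17.1% of all genes, and 2 were higher and 3 lower in Msln-high, against 21.1% and 8.85%. With 8 genes, nothing was read from these counts.

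Within the remaining class, the genes outside the family that followed the summed fibrillar level most closely, by Pearson correlation of log2 CPM over 8 libraries and among 13564 genes, were Fhdc1 (r = 0.977), Irak1 (0.958) and Pcsk5 (0.948). These are descriptions over 8 libraries, which share their total of gene reads and differ in acinar RNA.

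The transgene was tested within the 3 classes of libraries with low Ptprc, by edgeR's quasi-likelihood test with class as a covariate on 10 TG+ and 9 TG- libraries. The genotype was taken from the same labels as the population, which the sort genes went against in 7 of 13 TG+ and 7 of 14 TG- libraries, so every transgene difference given here holds only as far as these genotype labels do. The CCL21 transgene went with no collagen difference past an adjusted p of 0.05: 0 of 40 collagen genes tested and 0 of all 17347 genes (0%) were called, and DESeq2 called 0 as well. At an unadjusted p below 0.05, 3 of the 40 and 13.4% of all genes passed. The log2 difference of TG+ minus TG- was positive for 29 of 40 collagen genes, with a median of 0.15, against 56.3% of all genes and a median of 0.05.

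Col1a1 stood at 3863, 4241 and 4674 CPM in TG+ and at 3914 to 4691 CPM in 4 TG- libraries of Ccl21a-high. Over the remaining class it stood at 5233 to 8344 CPM in 6 TG+ libraries and at 6278 and 6542 CPM in the TG- ones. The genotypes overlapped in both classes. In Msln-high the 1 TG+ library, at 5480.4 CPM, lay above the TG- ones at 2755, 4466 and 4788 CPM. The fitted log2 difference over all classes of the fit was 0.02 ± 0.15 (SE), with a 95% interval of -0.30 to 0.34 and an adjusted p of 0.962 by edgeR. Without that Msln-high TG+ library the difference was -0.11. Col3a1 differed by 0.12 ± 0.18 and Col4a1 by -0.02 ± 0.15, with adjusted p of 0.755 and 0.954 by edgeR. The 95% intervals of these 3 genes lay between -0.34 and 0.50 on the log2 scale.

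The 3 genes under an unadjusted p of 0.05 were low-level ones. Col7a1 stood at 8.69, 10.4 and 28.2 CPM in TG+ and 5.87 to 14.6 CPM in TG- libraries of Ccl21a-high, and its fitted difference was 0.63 ± 0.24, or 0.37 without the library labelled gp38 low TG+ 1, the one at 28.2 CPM. Col28a1 differed by 0.70 ± 0.29 and Col11a1, a chain of cartilage and thin fibrils, by 0.83 ± 0.38, and the adjusted p was 0.373 for each of the 3 by edgeR. Of the other genes of the pathway, 0 of 19 for chain modification, 0 of 13 for cross-linking and 0 of 8 for receptors were called in this fit by edgeR, and 4, 1 and 0 passed an unadjusted p of 0.05. In Ptprc-high libraries, outside this fit, Col1a1 stood at 7.07, 10.2 and 19.8 CPM in TG+ and at 6.38 to 14.7 CPM in 5 TG- libraries.

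**Figure D5:**
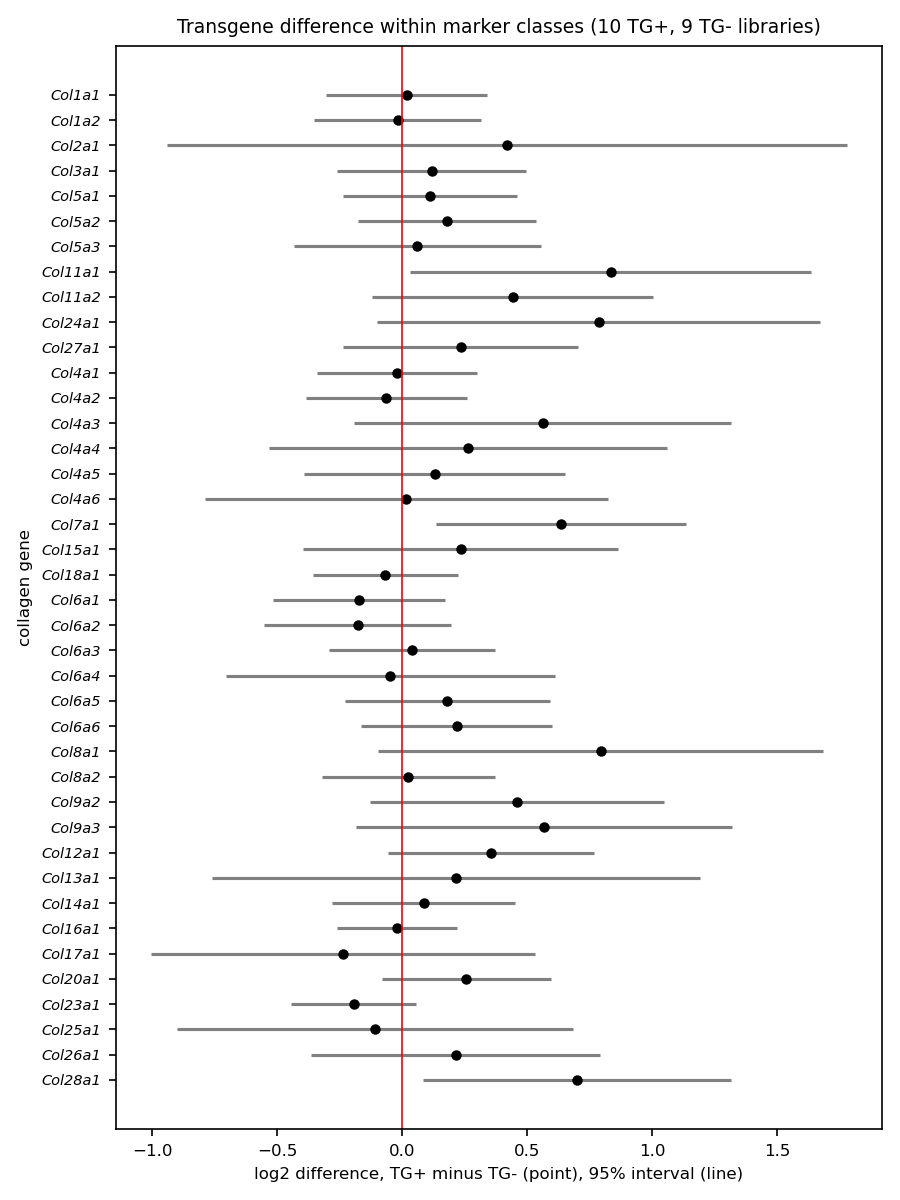
Log2 difference of TG+ minus TG- (points) with its 95% interval (lines) for 40 collagen genes, from edgeR with library class as a covariate, on 10 TG+ and 9 TG- libraries. The points lie mostly right of 0, and the intervals of Col7a1, Col11a1 and Col28a1 alone lie clear of it before adjustment.

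By the labels as given, no comparison called a collagen gene with edgeR, while most groups held libraries of several classes. In libraries labelled FRC, the 3 TG+ libraries were all Ptprc-high, with Col1a1 at 7.07, 10.2 and 19.8 CPM, and the 4 TG- libraries had 6.38, 14.2, 4788 and 6542 CPM. The genotypes overlapped, and they also did among the 5 Ptprc-high libraries with this label. The log2 difference was negative for 25 of 26 collagen genes, with a median of -7.09 against 0.03 over all 13819 genes, and for Col1a1 it was -7.66 ± 2.72 (adjusted p = 0.696 by edgeR). The other 2 TG- libraries were Msln-high and of the remaining class, and the part of library class in this difference was not tested.

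The transgene difference had a collagen median of 0.49 in libraries labelled CD45 (29 of 40 positive), 0.60 in those labelled gp38 low (33 of 38) and 1.40 in those labelled gp38 high (34 of 40). Between labelled populations the median was -0.86 for gp38 high minus gp38 low, 4.03 for gp38 low minus FRC and 3.15 for gp38 high minus FRC. The transgene difference in gp38 low minus that in FRC had a median of 7.41. These comparisons share libraries. In all 8 of them edgeR called 0 collagen genes and 0% of all genes. At an unadjusted p below 0.05 it passed 9 of 40 collagen genes (9.43% of all genes) for CD45. It passed 0 of 38 (1.94%) for gp38 low, 1 of 40 (5.13%) for gp38 high and 19 of 26 (7.1%) for FRC. It passed 3 of 40 (2.77%) for gp38 high against gp38 low and 32 of 40 (36.1%) for gp38 low against FRC. For gp38 high against FRC it passed 20 of 40 (16.4%), and for the difference of transgene effects 26 of 40 (13.3%).

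DESeq2 called 5 collagen genes (2.87% of all genes) for CD45, 0 (0.00709%) for gp38 low, 0 (0.223%) for gp38 high and 17 (3.97%) for FRC. It called 1 (0.799%) for gp38 high against gp38 low, 33 (26%) for gp38 low against FRC, 1 (4.01%) for gp38 high against FRC and 18 (3.47%) for the difference of transgene effects. For gp38 low against FRC the smallest adjusted p by edgeR was 0.0943, for collagen genes and for all genes alike. The edgeR count of 0 there rested on single libraries. With edgeR, 27 collagen genes were called without the library labelled gp38 low TG- 1, which was Ptprc-high. Without that labelled FRC TG- 1, of the remaining class, 13 were called, and for CD45 3 were called without TG+ 3. The shares of all genes called in these fits are not given here, so nothing particular to collagen is read from the counts.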

How the data were processed

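Per the labels' protocols, libraries were made from total RNA of sorted cells with ribosomal RNA depleted. The submitters' processing notes name STAR 2.5.2a, Trim Galore 0.4.3 and bcl2fastq 2.17, and the build mm10. For each library the authors deposited 1 table of raw counts of reads per gene, laid out as STAR writes them. Its first lines, reads in no gene, were left out of totals and tests; they held 19.4% to 67.7% (unmapped), 4.98% to 7.28% (multimapped), 5.85% to 26.1% (outside genes) and 0.308% to 0.665% (ambiguous) of reads.

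The column for reverse-strand reads was used, since the forward one held 6.67% to 15.3% of the reads on both. CPM are counts scaled to 1e+06 reads in genes. Of 54446 identifiers, 54409 matched GENCODE M21. Ratios between chains were taken per kilobase of 1 transcript per gene; type shares are shares of reads, not corrected for length. Tests used edgeR 4.0.16 in R 4.3.3 (TMM, filterByExpr, robust quasi-likelihood F test, Benjamini-Hochberg over all genes tested, false discovery rate 0.05), with DESeq2 1.42.0 as an alternative. Each SE is the log2 difference over the square root of its F. The scripts were tested on simulated data. Over all 351 pairs of libraries, none agreed within sampling noise (lowest chi-square per degree of freedom 6.45). The members, classes and gene lists were chosen with earlier results of these data known. Any collagen gene could be named, with values for the 5 of highest median CPM in each class and the type IV chains; the other genes of the pathway came from lists for chain modification, cross-linking and receptors, and the 3 closest genes by correlation.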

Additional observations from a re-analysis of the deposited data

Results flagged for a closer look

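In 83 sets of 4 to 8 values, 1 library stood farther from the rest of its set than Dixon's 95% limit allows in 13 sets. Chance alone does so in about 1 set in 20. The sets share libraries and some hold values of few reads, so the 13 cannot be set against that rate. Among the 4 libraries labelled CD45 TG-, replicate 4 had 47.6 CPM of fibrillar, 25.1 CPM of basement membrane and 51.9 CPM of other collagen genes, against at least 15756 CPM, 4221 CPM and 7743 CPM in the next lowest library. Replicate 4 was Ptprc-high (Ptprc at 261 CPM, Pdpn at 0.0708 CPM), as its label says, while the others of this set were Ccl21a-high. The rate of 1 set in 20 does not apply to a set that mixes classes in this way. Among Ccl21a-high libraries, the one labelled gp38 low TG+ 1 was far above the others in summed fibrillar genes (21039 CPM), Col3a1 (8171 CPM), Col4a3 (4.33 CPM) and Col4a5 (22.2 CPM). Among Msln-high libraries, the one labelled gp38 high TG- 1 was far below the others in Col14a1, at 809 CPM against 1217 CPM in the next.

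Among the remaining libraries, the one labelled gp38 low TG- 2 was low in Col4a4 (22.9 CPM) and Col4a5 (122 CPM), and the one labelled gp38 low TG+ 2 was high in Col6a4 (3.38 CPM). In Ptprc-high libraries, FRC TG+ 3 was high in Col4a4 (0.235 CPM) and FRC TG- 3 in Col6a5 (0.932 CPM), both values of few reads.

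Reads on the strand opposite to a collagen gene entered no value given above other than those said to count both strands or the opposite one. Their median passed 1 CPM and 10% of that on the gene's own strand in 5 cases. For Col23a1 it was 1.89 CPM in Ptprc-high, 23.7 CPM in Msln-high and 3.90 CPM in the remaining libraries. For Col6a4 it was 5.29 CPM in Ptprc-high, against 14.2 CPM on its own strand, and for Col17a1 it was 1.49 CPM in Msln-high, against 1.41 CPM on its own strand. What these reads come from was not tested.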

How the results depend on the processing

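Depth limits the collagen values of Ptprc-high libraries, where several genes hold a handful of reads, and the small number of libraries per class and genotype limits the tests. With Gm26917, an abundant non-coding RNA, left out of the CPM total, the median summed levels of fibrillar, basement membrane and other collagen genes were 86.5, 35.4 and 84.5 CPM in Ptprc-high and 18635, 5065 and 8984 CPM in Ccl21a-high. Such values are not given here for Msln-high and the remaining libraries. Their levels given above have Gm26917 in the total and are not on the same scale. With all class thresholds doubled, 3 collagen genes were lower in Ptprc-high than in the other libraries, 0 were lower in Ccl21a-high and 0 in Msln-high than in the remaining libraries, since 1 Ptprc-high library then counts among these. The shares of all genes under doubled thresholds are not given here. DESeq2 called 5 collagen genes for CD45, 17 for FRC, 1 for gp38 high against gp38 low, 33 for gp38 low against FRC, 1 for gp38 high against FRC and 18 for the difference of transgene effects, where edgeR called 0, and the cause was not tested. The numbers tested and the shares of all genes called by DESeq2 stand beside these counts above.

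With 1 library left out at a time, the count of collagen genes called by edgeR ran from 0 to 3 for CD45 and from 0 to 27 for gp38 low against FRC. It stayed at 0 in the other comparisons, and the shares of all genes in these fits are not given here. Within marker classes the log2 transgene difference then ran from -0.11 to 0.057 for Col1a1 and from -0.083 to 0.39 for Col15a1. With both strands counted together it was -0.00567 for Col1a1, and the Col23a1 median in Msln-high was 0.36 higher (log2) than in the remaining libraries. Of the results that answer a comparison, 806 alternative values stayed the same and 18 moved. Same-numbered libraries did not deviate together in all pairs (correlations of -0.17 to 0.65). These deviations were taken from the means of labelled groups, most of which mix classes. The check therefore cannot tell whether the replicate numbers pair the libraries. With the replicate number as a block, edgeR again called 0 collagen genes in all 9 comparisons.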
